A study of Mus musculus with 2 samples.

Results

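Mouse small-intestinal organoids given neuregulin 1 (NRG1) were compared with organoids given epiregulin (EREG) in 2 experiments. The comparison takes in 12 of the 18 libraries of the series, 3 NRG1 and 3 EREG libraries in each experiment, chosen by the ligand and experiment that the deposited sample sheet gives for each library. The other 6 libraries had EGF, and they entered the model only as another ligand and are named below only where values are set side by side. Organoids are cultures in which isolated crypts of the gut grow as a closed epithelium with stem cells, Paneth cells and differentiated cells. Crypts were from wild-type C57BL/6J mice, 1 mouse in each experiment, and grew in Matrigel for 3 days in a medium with EGF, Noggin, R-spondin 1 and N-acetylcysteine, which held the ROCK inhibitor Y-27632 at first. All groups were then kept without EGF for 24 h and received NRG1, EREG or EGF at 100 ng/ml for 24 h before RNA was isolated. Per the methods, mice of both sexes were used for crypts at 2 to 4 months of age, and which applied to these mice was not stated separately. The 3 libraries of a ligand are called replicates and are not described as separate cultures. The spread among libraries that the p-values rest on may therefore be technical, and each experiment stands for 1 mouse. EREG and NRG1 replicate 3 of experiment 2 are marked in the sample sheet as handled in a tube.

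EREG and EGF both bind the receptor EGFR, whereas NRG1 binds ERBB3 and ERBB4. ERBB3 has little kinase activity of its own and signals in a pair with ERBB2. Both receptor pairs feed into the ERK and PI3K pathways, and ERBB3 couples strongly to PI3K. In the gut, EREG and NRG1 are made mainly by fibroblasts under the epithelium, so a culture of epithelium alone receives them only from the medium or, for EREG, from the epithelial cells themselves.

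RNA was measured with a 3′ method that counts molecules by their unique molecular identifiers (UMIs). The EREG libraries held 1476750 to 1870130 UMIs and the NRG1 libraries 1311420 to 1883812, with the lowest totals in the NRG1 libraries of experiment 2. Values per library are normalized counts, that is UMI counts divided by the library's size factor. Because the method counts 3′ ends, they compare a gene between libraries and not 1 gene with another. Mitochondrial transcripts took 0.847 to 1.02% of the UMIs with EREG and 0.600 to 0.732% with NRG1 in experiment 1, and 0.637 to 0.799% and 0.565 to 0.578% in experiment 2, so that they were lower with NRG1 in both. The nuclear RNA *Malat1* took 0.0621 to 0.0846% with EREG and 0.170 to 0.171% with NRG1 in experiment 2. The part of these RNA measures in the differences below was not tested. Markers of epithelium such as *Epcam* were abundant with both ligands, while markers of other cell types were low. Of 5 endothelial markers 3 were at 0 counts in all 12 libraries, *Cdh5* and *Kdr* among them, and *Pecam1* had 6 counts over the EREG and 7 over the NRG1 libraries. Of 6 smooth muscle markers, *Des* was at 0 and *Acta2* had 59 and 57 counts, and the list summed to 14.9 to 25.9 normalized counts per EREG library and 10.4 to 30.5 per NRG1 library. *Nrg1* itself had 0 counts. Of the 11 immune markers listed, 5 were at 0, the T cell marker *Cd3e* among them, and 3 had at least 5 counts over the series. The list summed to 0 to 7.93 with EREG and 0.872 to 21.9 with NRG1. *Ptprc*, the common leukocyte marker, had 3 and 0 counts, and the macrophage and lysosome gene *Cd68* had 6 counts over the EREG libraries and 30 over the NRG1 libraries. It passed the test with a log2 fold change of 2.52 ± 0.70 (adjusted p = 0.013), and no longer did so without NRG1 replicate 2 of experiment 2 (adjusted p = 0.105). The 2 immune markers tested summed to 0 to 0.837 with EREG and 0.872 to 5.44 with NRG1 in experiment 1, and to 4.71 to 5.04 and 18.3 to 19.3 in experiment 2. The 4 fibroblast markers tested summed to 10.2 to 15.1 and 15.2 to 20.05 in experiment 1 and to 16.9 to 30.2 and 10.3 to 16.7 in experiment 2, higher with NRG1 in the first and lower in the second, and none of the 4 passed. The part of these cells in the differences was not tested. In bulk RNA, fewer cells of a type and less RNA per cell cannot be told apart.

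NRG1 and EREG organoids differed in 1375 of the 12130 genes tested (11.3%), of which 797 were higher with NRG1 (6.57%) and 578 were lower (4.77%). To pass, a gene needed a Benjamini-Hochberg adjusted p below 0.1 in edgeR's quasi-likelihood test, which is the test meant wherever an adjusted p is given. Another 1862 of the 13992 genes with at least 5 counts were too low to be tested. Most differences were small: the median absolute log2 fold change of the genes that passed was 0.49, 104 genes were higher by at least 1 on this scale and 85 lower, and the median over all genes tested was -0.02. The share that passed rose with the level of the gene, from 3.22% of the genes with a mean normalized count under 10 to 31.8% of those with 1000 or more. Of the 1375 genes, 1347 were protein coding, as were 11606 of the 12130 genes tested. The sign was the same in both experiments for 1345 of the 1375. This is no replication, since the test pools both experiments and so favours genes with like signs. In 295 genes (2.43%) the 3 NRG1 libraries lay above the 3 EREG libraries in each experiment, and in 173 (1.43%) they lay below in each. With the counts summed to 1 library per ligand and experiment, 518 genes passed.

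The ligand difference within each experiment came from 1 fit of all 18 libraries. The 2 experiments therefore share the estimates of spread and of replicate effects and are not separate analyses. Experiment 1 gave 841 genes (6.93%), 474 higher (3.91%) and 367 lower (3.03%), and experiment 2 gave 1329 (11%), 785 higher (6.47%) and 544 lower (4.48%). The number for experiment 1 was 460 without EREG replicate 2, 530 without NRG1 replicate 1 and 543 without NRG1 replicate 2 of that experiment. The number for experiment 2 was 748 without EREG replicate 1, 806 without EREG replicate 2, 832 without NRG1 replicate 2 and 808 without NRG1 replicate 3 of that experiment. A total of 254 genes passed in each experiment with the same sign, 30.2% of those of experiment 1 and 19.1% of those of experiment 2, and 20 passed in each with opposite signs. The plot of the log2 fold changes of both experiments shows the genes that passed mainly in the quadrants where the signs are alike, which the pooled test favours.

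**Figure D1:**
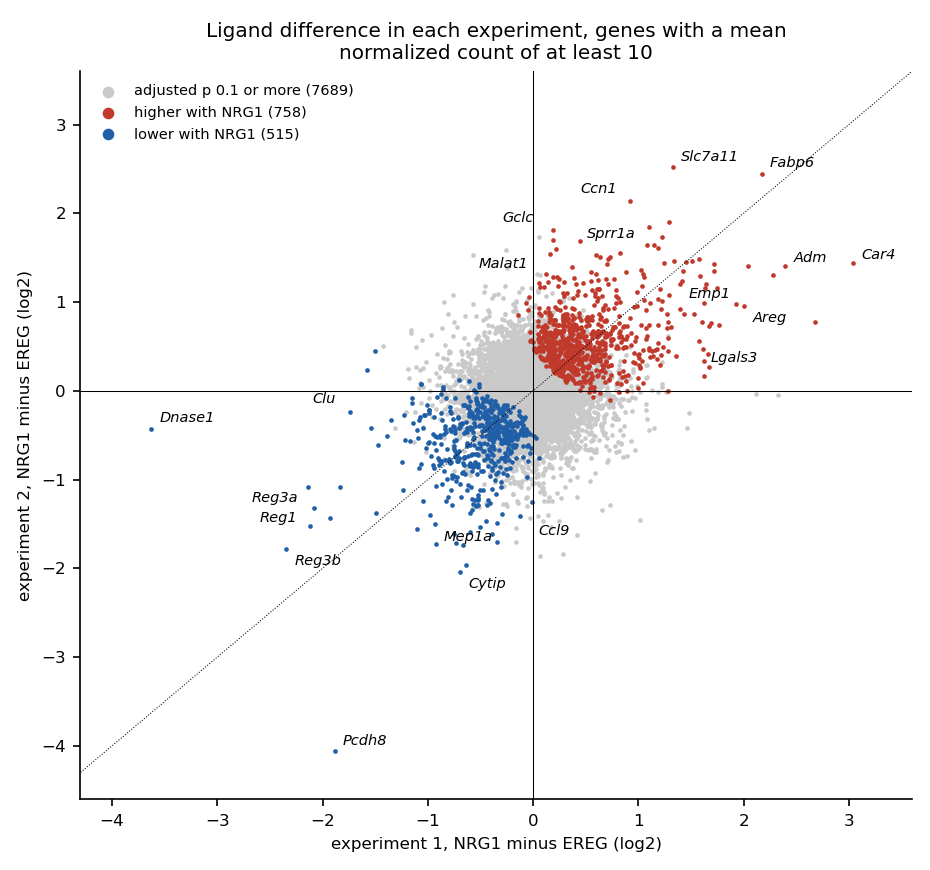
Log2 fold change NRG1 minus EREG in experiment 1 (x axis) and experiment 2 (y axis) for the 8962 genes tested with a mean of 10 or more normalized counts. Each point is a gene, 758 in red were higher and 515 in blue were lower with NRG1 over both experiments, and the dotted line marks equal values. *Fabp6* and *Slc7a11* lie far up and right and *Reg3b*, *Reg1* and *Reg3a* far down and left, while *Gclc* and *Dnase1* lie near an axis, with a difference in 1 experiment. *Pcdh8* had 0 counts in all NRG1 libraries of experiment 2, so its y value depends on the fit and is no bound.

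The gene with the largest rise among those with a mean of at least 10 and 1 direction in both experiments was *Fabp6*, the ileal bile acid binding protein. Its normalized counts were 34.8, 85.4 and 76.6 with EREG and 189, 301 and 411 with NRG1 in experiment 1, and 46.4, 48.03 and 62.5 and 267, 308 and 272 in experiment 2. All NRG1 libraries lay above all EREG libraries, and the log2 fold change was 2.30 ± 0.13 (adjusted p = 2.0e-17). Next was *Slc7a11*, the cystine carrier that supplies glutathione synthesis, with 31.6, 28.5 and 24.5 against 92.5, 63.7 and 60.1 in experiment 1 and 48.4, 29.2 and 54.5 against 256, 222 and 278 in experiment 2, and a log2 fold change of 2.04 ± 0.20 (adjusted p = 8.4e-08). The groups did not overlap, and the NRG1 libraries of experiment 2 were far above all others. Next in size came *Car4*, a membrane-bound carbonic anhydrase of the brush border, and *Adm*, which encodes the peptide adrenomedullin, with rises of 1.77 ± 0.35 and 1.73 ± 0.22. *Car4* was low in experiment 1, with at most 2.11 normalized counts in an EREG library and 11.4 in an NRG1 library.

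The other 6 of the 10 largest rises were *Ccn1* (1.63), a matricellular protein and YAP target, *Ccdc88b* (1.61), *Tmigd1* (1.61), an adhesion protein of the brush border, *Plk3* (1.56), a polo-like kinase, *Rab31* (1.51), a GTPase of vesicle traffic, and *Capg* (1.51), which caps actin filaments. Of these, *Tmigd1* had 39.3, 53.01 and 64.4 normalized counts as the lowest, median and highest EREG library and 102, 171 and 211 as those of NRG1, with no overlap. In the others the groups overlapped over both experiments, since levels differed between experiments, and for *Ccn1* and *Ccdc88b* also within experiment 1. Genes with smaller fold changes but small p-values were *Sprr2a3*, *Nfkbia*, *Gstm3*, *Anxa3*, *Tm4sf20*, *Emp1* and *Ly6a*, all higher with NRG1 in each experiment with no overlap within it. *Tm4sf20*, a tetraspan membrane protein, rose by 0.78 ± 0.07 (adjusted p = 1.3e-12) from 1418 to 1506 to 1966 to 2345 normalized counts in experiment 1 and from 2099 to 2346 to 3983 to 4774 in experiment 2.

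The largest falls were led by secreted lectins of the Reg family, antimicrobial and growth-associated proteins of the gut. *Reg3b* stood at 172, 341 and 383 with EREG and 59.9, 47.4 and 67.98 with NRG1 in experiment 1, and at 156, 153 and 159.7 and 40.4, 48.98 and 47.7 in experiment 2. Every NRG1 library was below every EREG library, with a log2 fold change of -2.11 ± 0.16 (adjusted p = 3.9e-11). *Reg1* fell from 702, 852 and 840.5 to 212, 179 and 162 in experiment 1 and from 389, 326 and 253 to 74.3, 135 and 126 in experiment 2 (-1.86 ± 0.16, adjusted p = 6.4e-07), and *Reg3a*, which had the smallest p of all genes, by 1.72 ± 0.12 (adjusted p = 4.8e-18). *Reg3g* fell less, by 0.45 ± 0.09, without overlap between the groups. All 5 *Reg* genes tested were lower, *Reg4*, a marker of secretory cells, being the fifth.

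The remaining falls among the 10 largest were spread over functions. *Pcdh8*, a protocadherin, was at 33.7, 39.3 and 25.5 with EREG and 3.27, 8.98 and 13.9 with NRG1 in experiment 1, and in experiment 2 it was near or at 0 with both ligands. *Dnase1*, a secreted nuclease, was at 29.5, 24.3 and 19.4 with EREG and 6.53, 0 and 0 with NRG1 in experiment 1, and at 10.1, 12.2 and 9.92 and 9.13, 9.02 and 5.96 in experiment 2 (-1.92 ± 0.45, adjusted p = 0.0057). Its transcript overlaps that of *Trap1* on the other strand, which had 131 normalized counts on average against 13.2 for *Dnase1*. The carboxylesterase *Ces1d* (-1.55), the chymotrypsinogen gene *Ctrb1* (-1.55), the leukocyte adaptor gene *Cytip* (-1.54), the glucuronosyltransferase *Ugt2a3* (-1.43) and the sugar carrier *Slc5a9* (-1.42) followed, with 14.7 to 28.6 normalized counts with EREG and 5.72 to 9.53 with NRG1 for *Ugt2a3*, which did not overlap.

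Some genes of the EGF family and of the response to it were higher with NRG1, and none tested was lower over both experiments. Of the 6 ligand genes tested, 3 rose and none fell, with a list median of 0.64 on the log2 scale against -0.02 over all genes. *Areg*, which encodes amphiregulin, a ligand of EGFR, was at 134, 133 and 123 with EREG and 784, 475 and 348 with NRG1 in experiment 1, and at 973, 989.7 and 817 and 1871, 1784 and 1735 in experiment 2. The NRG1 libraries were higher in each experiment (1.43 ± 0.20, adjusted p = 4.7e-04), and EREG libraries of experiment 2 were above NRG1 libraries of experiment 1. *Hbegf*, the heparin-binding ligand of EGFR and ERBB4, rose by 0.70 ± 0.18 (adjusted p = 0.016), with 73.7, 77.8 and 54.1 against 135, 67.8 and 52.3 in experiment 1, where the groups overlapped, and 135, 147 and 176 against 325, 275 and 328 in experiment 2, where they did not. *Btc*, betacellulin, rose by 0.58 ± 0.12. *Ereg*, the gene of the ligand given to the other group, had 2.11, 5.02 and 1.02 against 6.53, 5.72 and 8.72 in experiment 1 and 23.2, 25.4 and 6.94 against 29.996, 24.5 and 28.6 in experiment 2 and did not pass (0.81 ± 0.34, adjusted p = 0.14), though it did without EREG replicate 2 or NRG1 replicate 1 of experiment 2 (adjusted p = 0.054 to 0.0864). *Tgfa* and *Nrg4* did not pass either.

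Receptor genes showed no difference that passed over both experiments. *Egfr*, the receptor of EREG, had 15.9, 18.7 and 25.4 normalized counts as lowest, median and highest with EREG and 13.1, 22.1 and 35.2 with NRG1 (0.16 ± 0.22, adjusted p = 0.76). *Erbb2* had 27.4, 49.6 and 97.8 and 32.7, 46.3 and 50.05 (-0.30 ± 0.17, adjusted p = 0.32), and its transcript overlaps the more abundant *Mien1* on the other strand. *Erbb3*, the receptor of NRG1, had 132, 185 and 203 and 117, 158 and 223 (-0.10 ± 0.11, adjusted p = 0.67). Of the 7 genes for receptors and their inhibitors, only *Errfi1* passed, an inhibitor of EGFR and ERBB2 that is itself induced by their signal, and it rose by 0.72 ± 0.13 (adjusted p = 6.2e-05).

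Among 15 genes listed for ERK feedback or as targets of ERK, 6 rose and none fell (median 0.42). *Plaur*, the urokinase receptor, went from 3.06 to 11.6 to 16.3 to 25.03 normalized counts in experiment 1 and from 37.3 to 42.6 to 95.4 to 119 in experiment 2 (1.43 ± 0.19, adjusted p = 7.1e-08). The phosphatase genes *Dusp1* (1.20) and *Dusp4* (1.10), which switch off MAP kinases, and *Phlda1* (0.50) rose with it, the last without overlap between the ligands. *Dusp5* rose too, while the phosphatase genes *Dusp6*, *Dusp7* and *Dusp14* did not pass. Nor did the Sprouty and Spred inhibitors tested, *Spry1*, *Spry2*, *Spred1* and *Spred2*, or the factors *Etv4* and *Etv5*. Of 13 AP-1 and immediate early genes, 7 rose and none fell (median 0.70): *Fos* by 1.17 ± 0.19, *Atf3* by 0.91 ± 0.16, *Maff* by 0.92 ± 0.20, *Klf6* by 0.70 ± 0.12, and *Fosl1*, *Junb* and *Egr1*. *Fos*, a subunit of the AP-1 factor, was at 33.3 to 48.97 with EREG and 89.4 to 116 with NRG1 in experiment 2. FOXO factors are held out of the nucleus by PI3K signalling. Of 18 genes that they induce, 2 rose (11.1%, against 6.57% of all genes) and none fell, with a median of 0.03. The 2 were *Ccng2* and *Bnip3*. Neither passed without NRG1 replicate 1 of experiment 1, and *Ccng2* did not pass without EREG replicate 2 or NRG1 replicate 3 of experiment 2 either (adjusted p = 0.192 and 0.101 to 0.159).

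**Figure D2:**
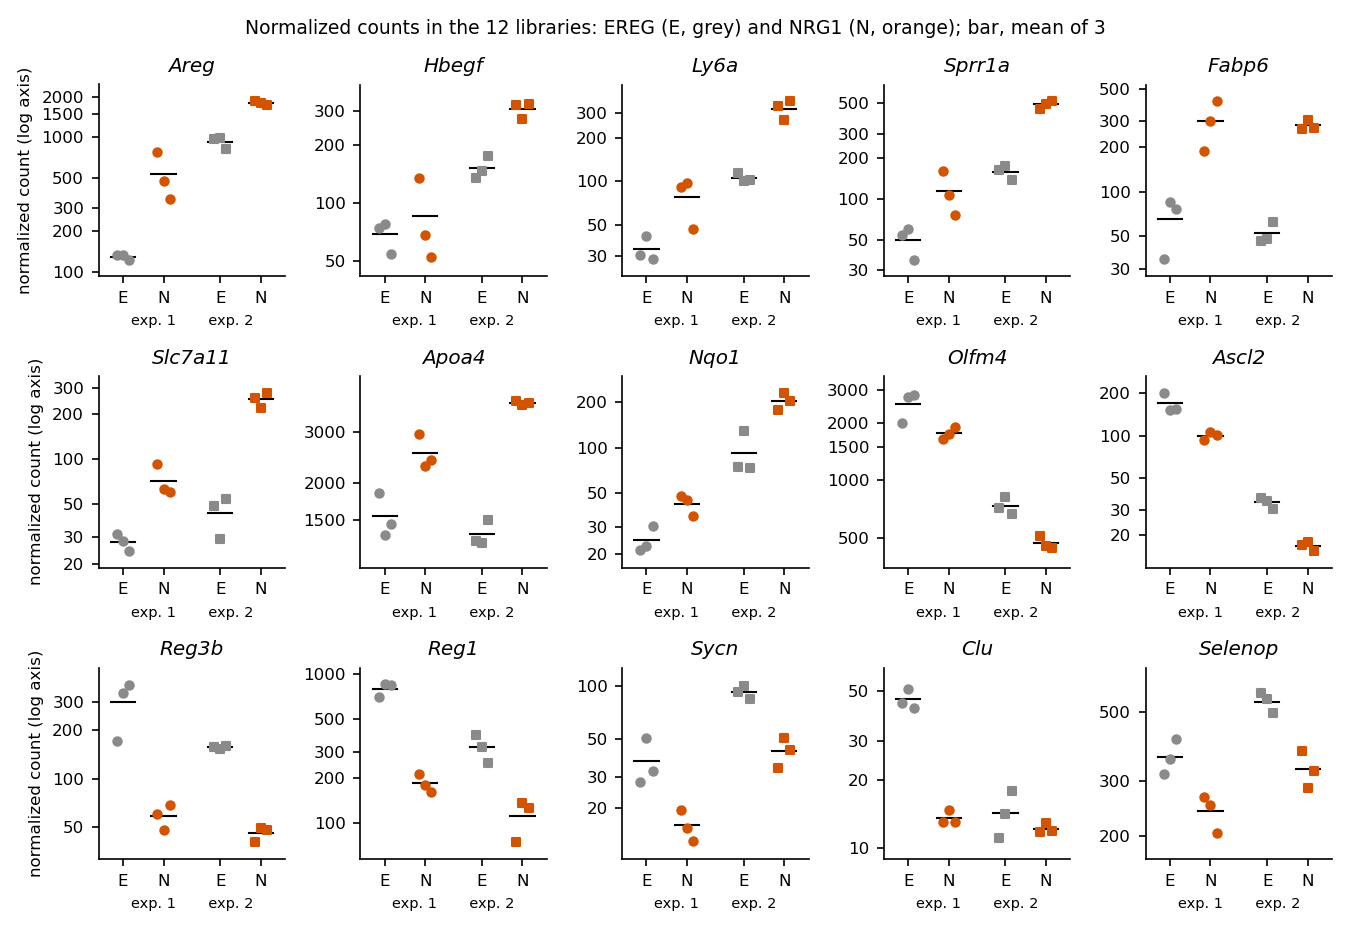
Normalized counts (y axis, log scale) of 15 genes in the 12 libraries, EREG in grey and NRG1 in orange, circles for experiment 1 and squares for experiment 2. Each point is a library and each bar the mean of 3. In *Fabp6*, *Slc7a11*, *Reg3b* and *Reg1* the ligands do not overlap, and in *Areg*, *Sprr1a* or *Ascl2* the ligands were apart within each experiment while the experiments differed in level.

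The genes known from fetal intestine and from the epithelium that repairs an injury formed the list with the largest share of rises among lists of over 20 genes tested. Of 25 tested, 18 rose, 1 fell and 6 did not pass, and the median was 0.81 (0.64 in experiment 1 and 0.81 in experiment 2). *Ly6a*, which encodes the surface protein Sca-1 that marks such epithelium, was at 30.5, 41.8 and 28.6 with EREG and 91.4, 97.2 and 46.2 with NRG1 in experiment 1, and at 114, 99.8 and 102 and 334, 267 and 361 in experiment 2. NRG1 libraries were higher in each experiment (1.46 ± 0.14, adjusted p = 7.3e-12). *Emp1*, an epithelial membrane protein, rose by 1.27 ± 0.12 (adjusted p = 1.4e-12) and *Cldn4*, a claudin, by 1.12 ± 0.16 (adjusted p = 1.4e-04), from 196 to 287 to 516 to 785 in experiment 2. The list has *Clu* too, a marker of stem cells that appear after damage, and this gene was lower with NRG1. It had 44.2, 51.04 and 41.9 normalized counts with EREG and 13.1, 14.7 and 13.1 with NRG1 in experiment 1, and 11.1, 14.1 and 17.9 and 11.7, 12.9 and 11.9 in experiment 2 (-1.21 ± 0.25, adjusted p = 3.5e-04). The EREG libraries of experiment 1 stood apart from all others, and in experiment 2 the ligands overlapped.

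The families that make up part of this list moved with it. All 4 small proline-rich genes tested, crosslinked into the envelope of stressed or stratified epithelium, rose (median 1.32). *Sprr1a* went from 54.8, 60.2 and 35.7 to 161, 106 and 76.7 in experiment 1 and from 162, 172 and 138 to 455, 495 and 522 in experiment 2 (1.47 ± 0.19, adjusted p = 1.0e-04). *Sprr2a3* rose by 1.18 ± 0.09 (adjusted p = 5.3e-17), and 57.2% of the 61-nucleotide windows at its 3′ end also lie in *Sprr2a1*, *Sprr2a2* or *Sprr2b*, so that its count may hold reads of these genes. Of 9 Ly6 genes, 5 rose and 1 fell, *Lypd8*, which did not pass without EREG replicate 1 or NRG1 replicate 1 or 2 of experiment 2 (adjusted p = 0.104 to 0.153). *Ly6d* rose by 1.17 ± 0.27. Of 12 annexins and partners, membrane proteins that bind calcium, 8 rose and none fell, *Anxa3* by 1.23 ± 0.11 (adjusted p = 5.2e-13), *Anxa2* by 0.73 ± 0.08 and *Anxa5* by 0.69 ± 0.11. *Anxa2* had 1336 to 1916 normalized counts with EREG and 2468 to 3517 with NRG1 in experiment 1, and 3149.7 to 3406 and 4823 to 5173 in experiment 2. Of 7 keratins, the filaments of epithelial cells, 5 rose and none fell: *Krt23* by 0.83 ± 0.12, *Krt20* by 0.61 ± 0.09, *Krt19* by 0.47 ± 0.07, *Krt8* by 0.42 ± 0.07, and *Krt7*. *Krt20*, a marker of mature surface cells, was at 173 to 217 and 244 to 292 with EREG and 289 to 339.6 and 334 to 431 with NRG1 in experiments 1 and 2. Of 21 targets of YAP and TEAD factors, 6 rose and none fell (median 0.24), with *F3*, tissue factor, at 1.47 ± 0.18 and *Ccn1* at 1.63 ± 0.31. The other 15 did not pass, *Amotl2*, *Ajuba* and *Lats2* among them, and *Ccn2* and *Ankrd1* were too low to be tested. Of the 6, *Areg* and *Cldn4* are also counted in the fetal list. *Vgll4*, a competitor of YAP at TEAD, fell by 0.29 ± 0.09 (adjusted p = 0.038). Its NRG1 libraries were below the EREG libraries in experiment 1, 269, 198 and 190.0 against 329.7, 305 and 312, and overlapped with them in experiment 2, and the call was lost without EREG replicate 2 or 3 or NRG1 replicate 2 or 3 of experiment 1 (adjusted p = 0.116 to 0.172).

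AP-1 factors bind TGANTCA, and the promoters of the fetal and regenerative genes were searched for it on both strands, from 250 bases before to 50 after the RefSeq start sites (GRCm38.p6). The motif lay in the promoters of 7 of the 17 genes with an entry (41.2%). The share was 8.97% of 27025 promoters and 6.26% of the 9484 genes tested that had one. Of the 17 genes, 13 had risen, and all 7 with the motif were among these 13 (53.85%). With so few genes that did not rise, this split does not tie the motif to the rise. It lay in 12.3% of 641 promoters of all genes that rose and in 7.16% of 461 of those that fell. The sites of genes named above are shown with 10 bases on either side and the motif in capitals:
*Emp1*, 142 bases before the start (chr6:135362776-135362802, + strand): tctgtgtgtcTGAGTCAgagggagcta
*Emp1*, 22 bases before (chr6:135362896-135362922, + strand): aaatccagacTGATTCAtagaaactcc
*Cldn4*, 236 bases before (chr5:134947158-134947184, - strand): tctaggctggTGACTCAgtgtctgtgt
*Cldn4*, 154 bases before (chr5:134947076-134947102, - strand): tactggcgggTGACTCAggggcccagg
*Sprr1a*, 142 bases before (chr3:92486011-92486037, - strand): taactaaagcTGAGTCAgagggtgaac
*Sprr1a*, 112 bases before (chr3:92485981-92486007, - strand): gggaggagggTGAGTCAtaggtgactg
*Anxa2*, 92 bases before (chr9:69453578-69453604, + strand): ccaagttggaTGAGTCAcccagcaggg
A match describes these letters and does not show that a factor binds there, and the shares were not tested.

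Genes of the crypt base moved the other way. Of 25 stem cell genes tested, 13 were lower with NRG1, 2 were higher, *Aqp4* and *Tgif1*, and 10 did not pass (median -0.37). *Aqp4* did not pass without EREG replicate 2 of either experiment or NRG1 replicate 2 of experiment 1, nor *Tgif1* without EREG replicate 2 of experiment 1 or any library of experiment 2 (adjusted p = 0.122 to 0.192 and 0.103 to 0.355). *Olfm4*, a secreted marker of crypt base cells, had 2011, 2753 and 2816 normalized counts with EREG and 1661, 1753 and 1905 with NRG1 in experiment 1, and 716, 814 and 669 and 509.9, 454 and 439 in experiment 2. The NRG1 libraries were lower within each experiment (-0.58 ± 0.08, adjusted p = 2.8e-07), and the level was lower in experiment 2 with both ligands. *Lgr5*, the R-spondin receptor that defines these stem cells, had 126, 156 and 177 against 138, 99.7 and 133 in experiment 1 and 97.8, 71.6 and 87.3 against 65.2, 52.8 and 73.9 in experiment 2. The ligands overlapped in both experiments, and the fall of -0.37 ± 0.12 (adjusted p = 0.04) did not pass without EREG replicate 2 of experiment 1, NRG1 replicate 2 of experiment 1 or EREG replicate 1 of experiment 2 (adjusted p = 0.109 to 0.16). The transcription factor *Ascl2*, a Wnt target that maintains stem cells, fell by 0.81 ± 0.14 (adjusted p = 2.9e-05), from 200.1, 151 and 154 to 92.5, 106 and 101 in experiment 1 and from 36.3, 34.8 and 30.7 to 16.95, 18.05 and 15.5 in experiment 2. *Clca3b* (-0.99) and *Cdca7* (-0.63) fell with no overlap within either experiment. Of 16 Wnt targets, 6 fell and none rose (median -0.29), all 6 also members of the stem cell list. *Axin2*, the feedback inhibitor of the pathway, fell by 0.76 ± 0.19 (adjusted p = 0.0065). Without EREG replicate 2 of experiment 1, 3 Wnt targets passed. Of 17 Notch and lineage genes, 3 fell, *Sox4*, *Sox9* and the receptor *Notch1* (-0.81 ± 0.22, adjusted p = 0.012), and none of these passed without NRG1 replicate 1 of experiment 1. Without EREG replicate 2 or 3 or NRG1 replicate 2 or 3 of that experiment, 1 of the 3 passed, and *Sox4* did not pass without EREG replicate 1 or 2 of experiment 2 either (adjusted p = 0.104 for *Notch1*, 0.118 to 0.17 for *Sox4* and 0.218 to 0.284 for *Sox9*).

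Among secretory genes, falls outnumbered rises in each list except the enteroendocrine one. Paneth cells sit at the crypt base and release alpha-defensins, small antimicrobial peptides, and 7 of the 12 alpha-defensin genes tested fell while none rose (median -0.32). With counts summed per ligand and experiment, 1 fell. *Defa24* was at 34644, 29805 and 29248 normalized counts with EREG and 27141, 21354 and 21380.3 with NRG1 in experiment 1, and at 27303, 23255 and 29883 and 22124, 22795 and 24301 in experiment 2, where the ligands overlapped (-0.32 ± 0.07, adjusted p = 6.1e-04). *Defa26* fell by 0.52 ± 0.10 with no overlap and *Defa17* by 0.31 ± 0.07 with overlap in both experiments. These genes share long stretches, 18.1%, 25.96% and 91.7% of the 3′ windows in the same order, so a count may belong in part to another defensin. Without the replicate number in the model the call of *Defa17* was lost (adjusted p = 0.51), and replicate 2 was low with both ligands in both experiments. Of 17 other Paneth granule genes, 9 fell and 1 rose, the stress protein gene *Nupr1* (median -0.32). *Itln1*, an intelectin that binds microbial sugars, fell by 0.34 ± 0.07 (adjusted p = 2.6e-04) with no overlap within either experiment, and *Habp2*, a serine protease gene, by 1.01 ± 0.19 (adjusted p = 1.0e-04). Without the tube libraries, 5 of these genes were lower.

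Genes for digestive enzymes that resemble those of zymogen granules fell in 5 of 10 cases and rose in none (median -0.62). This list, too, was chosen with earlier results of these data known, so its share is no independent result. The fall of *Clps* is also counted among the Paneth granule genes. *Sycn*, syncollin, a protein of zymogen granules, was at 28.4, 50.2 and 32.7 with EREG and 19.6, 15.5 and 13.1 with NRG1 in experiment 1, and at 91.7, 99.8 and 84.3 and 33.9, 50.3 and 42.9 in experiment 2 (-1.16 ± 0.16, adjusted p = 2.5e-07). It overlaps *Samd4b* on the other strand. *Ctrb1* fell by 1.55 ± 0.24, *Clps*, the cofactor of pancreatic lipase, by 0.62 ± 0.11, and *Rnase1*, a secreted ribonuclease, by 0.62 ± 0.10, the last with 293 to 358 normalized counts with EREG and 137 to 268 with NRG1. Of 22 goblet cell genes, 7 fell and none rose (median -0.24), among them *Ccl6*, a chemokine (-0.77), *Agr3*, a disulfide isomerase (-1.16), and *Tff3*, the trefoil peptide that goblet cells release with mucus (-0.28 ± 0.07, adjusted p = 0.0096). The mucin *Muc2* and the lineage factors *Atoh1* and *Spdef* did not pass. *Agr3* was at 24.2, 51.9 and 52.1 with EREG and 7.62, 14.7 and 20.05 with NRG1 in experiment 1, and at 12 or less in all libraries of experiment 2. Enteroendocrine genes went both ways, 3 up, 3 down and 23 not passing, with a median of 0.01. Each direction took 10.3%, against 6.57% of all genes higher and 4.77% lower. The incretin *Gip* fell by 0.43 ± 0.08 (adjusted p = 1.2e-04) and the granin *Chga* by 0.49 ± 0.12 (adjusted p = 0.0054), whereas *Ghrl*, which encodes ghrelin, rose by 0.33 ± 0.10 (adjusted p = 0.022), a call lost without NRG1 replicate 1 of experiment 1 (adjusted p = 0.103). Without that library 1 enteroendocrine gene rose, and without EREG replicate 2 of experiment 1 it was 5. Of 16 tuft cell genes, 1 fell (6.25%, against 4.77% of all genes), *Cd24a*, which is also in the Paneth list. It did not pass without EREG replicate 2 or 3 or NRG1 replicate 2 of experiment 1, or without EREG replicate 1 or 2 or NRG1 replicate 2 or 3 of experiment 2 (adjusted p = 0.102 to 0.288).

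Among absorptive genes, rises outnumbered falls for lipids, bile acids and the brush border. Of 22 lipid absorption genes, 10 rose and 1 fell, the fatty acid carrier *Cd36* (median 0.29). *Apoa4*, an apolipoprotein of chylomicrons, had 1857, 1325 and 1447 normalized counts with EREG and 2963, 2288 and 2413 with NRG1 in experiment 1, and 1269, 1249 and 1494 and 3852, 3730.4 and 3789 in experiment 2. The ligands did not overlap (1.11 ± 0.11, adjusted p = 1.2e-06), nor did they for *Fabp1*, the fatty acid binding protein, at 6140.4 to 7207 and 9064 to 15361 (0.84 ± 0.09, adjusted p = 8.6e-08), for *Acsl5*, which activates fatty acids (0.65), or for *Creb3l3*, a transcription factor of apolipoprotein genes (0.84). Of 10 ileal bile acid genes, 5 rose and none fell (median 0.80), and these were the carriers *Slc10a2*, *Slc51b*, *Abcc2* and *Abcc3* and the binding protein *Fabp6*. *Slc10a2*, the uptake carrier of the brush border, was at 11.6 to 26.8 with EREG and 38.7 to 64.5 with NRG1 (1.45 ± 0.21, adjusted p = 6.3e-07). *Slc51b*, a subunit of the export carrier on the basal side, was at 17.6 to 62.5 and 64.5 to 129 (1.36 ± 0.14, adjusted p = 3.9e-11). Together with *Fabp6*, which carries bile acids through the cytosol, these showed no overlap, and *Abcc2*, an export pump, rose by 0.74 ± 0.13. *Slc51a*, the other subunit of the basal export carrier, the hormone *Fgf15*, the receptor *Nr1h4* and its target *Nr0b2* did not pass.

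Of 26 hydrolases and transporters of the brush border, 5 rose, 2 fell and 19 did not pass (median 0.09), and 3 rose without EREG replicate 1 or 3 of experiment 1, EREG replicate 3 of experiment 2, or NRG1 replicate 2 or 3 of experiment 2. Without NRG1 replicate 2 of experiment 1, 1 fell. *Alpi*, intestinal alkaline phosphatase, rose by 0.67 ± 0.13 (adjusted p = 8.7e-05), and *Mep1a*, a subunit of the protease meprin, fell by 1.17 ± 0.25 (adjusted p = 6.1e-04) with 19.8 to 33.3 normalized counts with EREG and 5.22 to 16.8 with NRG1. Of 12 genes of the villus tip, 5 rose and none fell, among them *Cdkn1a*, the cell cycle inhibitor p21, from 878 to 1232 to 1573 to 2806 in experiment 1 and from 1969 to 2461 to 3539 to 4099 in experiment 2 (0.89 ± 0.10, adjusted p = 3.0e-06), and the nuclear RNA *Neat1* (1.04). The esterase, glucuronosyltransferase and cytochrome genes split, with 8 of 32 higher and 7 lower. *Ces2c* rose by 0.94 ± 0.13, with 24.9% of its 3′ windows shared with other genes, and *Cyp4f14* by 0.49 ± 0.08, while *Ces1d* and *Ugt2a3* were among the largest falls.

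Redox genes formed the other large group of rises. Glutathione is built from cystine that the cell imports, and glutathione transferases and the reductases that supply NADPH use or restore it, many of them under the transcription factor NRF2. The culture medium of all groups held N-acetylcysteine, a precursor of glutathione. Of 13 genes for cystine import and glutathione synthesis, 8 rose and 1 fell, *Cbs* (median 0.43). Beside *Slc7a11*, its partner *Slc3a2* rose by 0.40 ± 0.10, the ligase *Gclc* by 1.11 ± 0.26 (adjusted p = 0.017), the synthetase *Gss* by 0.60 ± 0.09 and the reductase *Gsr* by 0.45 ± 0.08. *Gss* overlaps *Acss2* on the other strand. Of 23 glutathione transferases, 13 rose and 1 fell, *Gsto1* (median 0.28). *Gsto1* did not pass once NRG1 replicate 2 of experiment 1 or EREG replicate 2 of experiment 2 was left out (adjusted p = 0.116 to 0.144). *Gstm3* was at 573, 522 and 415 with EREG and 1064, 844 and 751 with NRG1 in experiment 1, and at 2193, 1815 and 1362 and 2969.6, 3264 and 3187 in experiment 2 (0.83 ± 0.08, adjusted p = 4.2e-13). *Gstm1* rose by 0.92 ± 0.18, *Gstm4* by 0.75 ± 0.12 and *Gsta3* by 0.54 ± 0.08, and 19.6% of the 3′ windows of *Gstm1* were shared with *Gstm3*.

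Of 31 NRF2 target genes for reductases and NADPH enzymes, 20 rose and none fell (median 0.38). *Nqo1*, the quinone reductase often used as the readout of NRF2, had 21.1, 22.6 and 30.6 normalized counts with EREG and 47.9, 44.9 and 35.7 with NRG1 in experiment 1, and 74.6, 128 and 73.4 and 176, 228 and 201 in experiment 2. The ligands were apart in each experiment (1.02 ± 0.14, adjusted p = 2.5e-07). *Akr1b8*, an aldo-keto reductase, rose by 1.32 ± 0.15 (adjusted p = 1.2e-06), *Srxn1*, sulfiredoxin, by 0.88 ± 0.14, and *Cbr1*, a carbonyl reductase, by 0.65 ± 0.09. Both *Nfe2l2*, which encodes NRF2, and *Keap1*, its inhibitor, were among the 20. Glutathione peroxidases did not follow: none of the 5 tested passed, and of 14 peroxidase and selenoprotein genes 2 rose and 1 fell, with 2 falls without NRG1 replicate 1 of experiment 1. The gene that fell with all libraries was *Selenop*, the secreted selenium carrier, at 317, 354 and 411 with EREG and 268, 251 and 204 with NRG1 in experiment 1, and 576, 554 and 497 and 374, 286 and 323 in experiment 2 (-0.66 ± 0.09, adjusted p = 2.8e-08). *Selenbp1*, which binds selenium, rose by 0.75 ± 0.20, with 35.1% of its 3′ windows shared. Of 5 oxidase genes, 2 rose, the DUOX2 maturation factor *Duoxa2* (1.28) and the oxidase activator *Noxa1* (0.79).

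The core of the antioxidant response element, TGACNNNGC, to which NRF2 binds, was searched in the same promoter windows on both strands. It lay in 16 of 58 promoters of the redox genes (27.6%), in 11 of the 34 that rose (32.4%) and in 5 of the 24 that did not (20.8%). Over all promoters the share was 14%, over those of tested genes 17.1%, over those of the genes that rose 21.8% and over those that fell 14.3%, and none of these shares was tested against another. The sites in *Gsta3* and *Srxn1*, which rose, and in *Me1*, an NADPH enzyme chosen after its values and site were seen (log2 fold change 1.04), are shown with the core in capitals. In *Me1* the core holds an AP-1 site too, since both motifs may share the letters TGACTCA:
*Gsta3*, 116 bases before the start (chr1:21240454-21240482, + strand): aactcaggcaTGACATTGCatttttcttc
*Srxn1*, 32 bases after (chr2:152105542-152105570, - strand): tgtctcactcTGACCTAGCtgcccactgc
*Me1*, 2 bases before (chr9:86695902-86695930, - strand): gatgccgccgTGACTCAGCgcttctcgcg

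**Figure D3:**
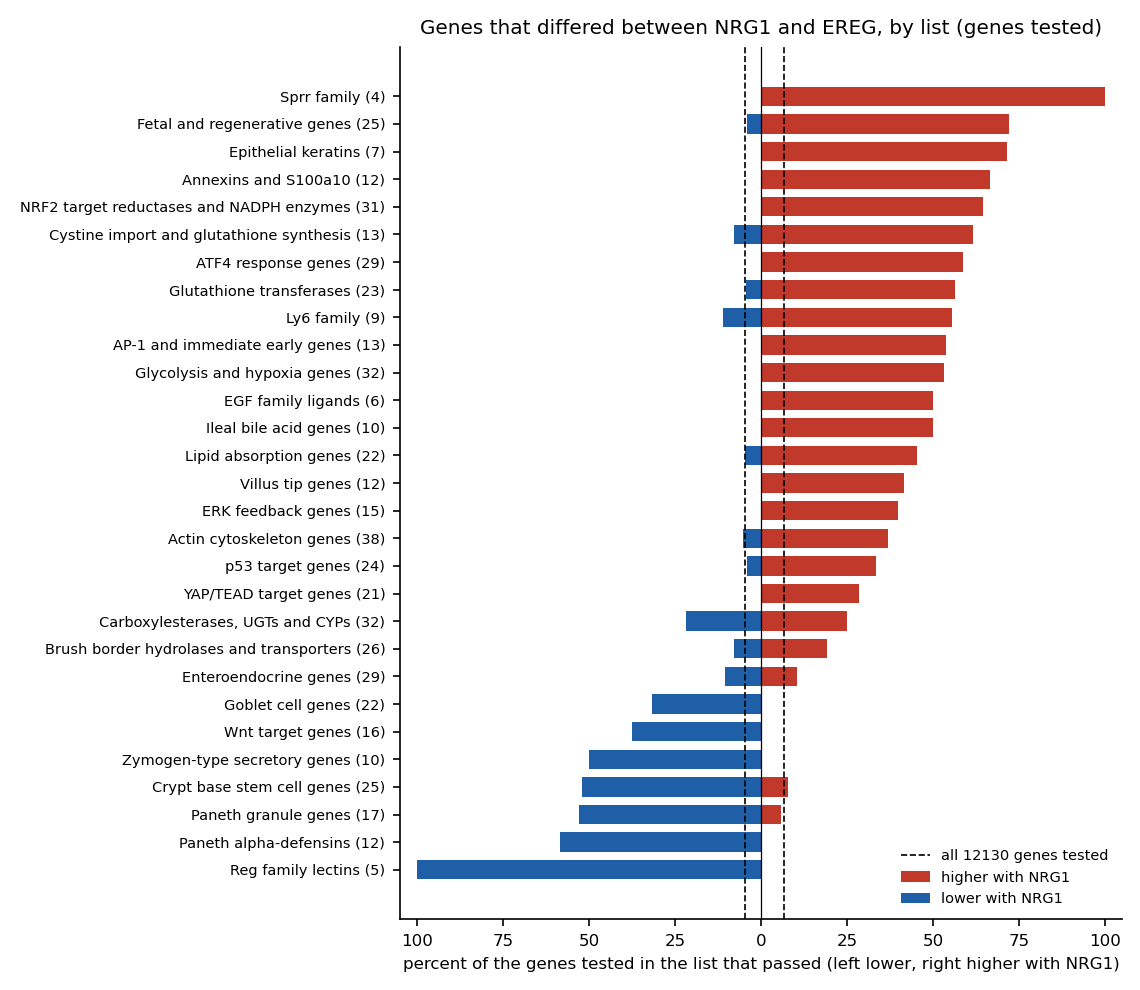
Percent of the genes tested in each of 29 lists that were higher (red, to the right) or lower (blue, to the left) with NRG1, with the number tested in brackets. The dashed lines mark 6.57% and 4.77%, the shares over all 12130 genes. The fetal, keratin and annexin lists reach furthest right among lists of over 5 genes and the Paneth and stem cell lists furthest left.

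Stress and nutrient genes rose in several lists, which share some genes, such as *Ddit4* and *Ero1l*. In the ATF4, serine and glycolysis lists more genes passed in experiment 1 than in experiment 2, while it was the reverse for genes of protein folding in the endoplasmic reticulum. These differences of counts were not tested. Of 29 genes of the ATF4 response, which a cell uses when amino acids run short, 17 rose and none fell (median 0.33), with 20 passing in experiment 1 and 6 in experiment 2. *Ddit3*, the factor CHOP, had 61.1, 40.2 and 35.7 normalized counts with EREG and 137, 80.05 and 80.2 with NRG1 in experiment 1, and 246, 194 and 221 and 326, 285 and 297 in experiment 2 (0.71 ± 0.12, adjusted p = 1.0e-05), and it overlaps *Mars* on the other strand. *Sars*, the seryl-tRNA synthetase, rose by 0.41 ± 0.08 and *Eif4ebp1*, an inhibitor of translation, by 0.44 ± 0.09. The 17 became 9 without NRG1 replicate 1, 10 without NRG1 replicate 2, EREG replicate 2 or EREG replicate 3, and 11 without NRG1 replicate 3, all of experiment 1. Of 16 serine and one-carbon genes, 7 rose and 2 fell (median 0.01). Of these rises, *Phgdh*, *Psat1*, *Shmt2* and *Mthfd2* also count among those of the ATF4 list. The 7 became 1 to 3 without any of the same libraries, with 5 rises in experiment 1 and 1 in experiment 2. The 2 falls became 1 without NRG1 replicate 2 of either experiment or EREG replicate 1 or 2 of experiment 1. Of 32 genes of glycolysis and the response to low oxygen, 17 rose and none fell (median 0.40), 19 passing in experiment 1 and 7 in experiment 2. *Ero1l*, an oxidase of protein folding, rose by 1.22 ± 0.20 (adjusted p = 0.0016), from 525, 388 and 432 to 2208, 1299.5 and 922 in experiment 1 and from 1678, 1786 and 1692 to 3065, 2895 and 2804 in experiment 2. The hexokinase *Hk1* (0.97), the glucose carrier *Slc2a1* (0.73) and the aldolase *Aldoa* (0.38) rose as well. Of 22 folding and unfolded protein genes, 4 rose and none fell (median 0.05), with 1 rise in experiment 1 and 6 in experiment 2, and the 4 became 2 without EREG replicate 3 of experiment 1. Of the 8 hexosamine genes, the first enzyme *Gfpt1* rose by 0.72 ± 0.08 (adjusted p = 8.0e-10) and the other 7 did not pass. Of 18 arginine and ornithine genes, 1 fell (5.56%, against 4.77% of all genes) and 2 rose (11.1%, against 6.57%). *Oat*, ornithine aminotransferase, fell, at 1569.9 to 1778 with EREG and 861 to 874 with NRG1 in experiment 2 (-0.67 ± 0.08, adjusted p = 6.1e-09). The rises were *Sat1*, the polyamine acetyltransferase (0.63), and *Azin1*, which did not pass without NRG1 replicate 3 of experiment 2 (adjusted p = 0.103). Without EREG replicate 1 of either experiment or NRG1 replicate 1 or 2 of experiment 2, 2 fell.

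Of 24 p53 targets, 8 rose and 1 fell (median 0.35), led by *Cdkn1a*, *Plk3* and *Sfn*, the 14-3-3 sigma protein, at 63.6 to 88.5 with EREG and 118 to 181 with NRG1 in experiment 1, and 163 to 184 and 493 to 545 in experiment 2 (1.25 ± 0.12, adjusted p = 6.7e-11). *Perp*, a protein of desmosomes, rose by 0.54 ± 0.08. The gene that fell was *Trp53* itself, which did not pass without EREG replicate 1 or 2 or any NRG1 replicate of experiment 2, or without NRG1 replicate 1 of experiment 1 (adjusted p = 0.114 to 0.348). Of 31 genes of cholesterol and fatty acid synthesis, 5 rose and none fell over both experiments. Among the 5 were *Scd1*, the stearoyl desaturase (0.79), and *Insig1*, which restrains sterol synthesis (0.48). In experiment 1, 2 rose and 2 fell (median -0.09), and in experiment 2, 12 rose and none fell (median 0.26). The interaction passed in 4 of the 31. The 5 became 3 without NRG1 replicate 3 of experiment 2. Of 35 replication and mitosis genes, 4 rose (11.4%, against 6.57% of all genes), 2 fell (5.71%, against 4.77%) and 29 did not pass. With a single library left out, the 4 rises became 1 to 3, and the falls numbered 1 to 5.

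Of 38 actin cytoskeleton genes, 14 rose and 2 fell, *Cnn3* and *Myl9* (median 0.16). The 2 falls became 0 without NRG1 replicate 2 of experiment 1 or EREG replicate 2 of experiment 2, and 1 without EREG replicate 1 or 2 or NRG1 replicate 1 or 3 of experiment 1, or EREG replicate 3 or NRG1 replicate 1 or 2 of experiment 2. *Cnn2*, a calponin, rose by 0.96 ± 0.14 (adjusted p = 9.1e-07), *Rhoc*, a small GTPase, by 0.67 ± 0.11, *Tagln2*, transgelin 2, by 0.40 ± 0.08 and *Actb*, beta-actin, by 0.37 ± 0.07. The 3 genes after *Cnn2* differed within experiment 2 without overlap, and *Rhoc* also within experiment 1, with 86.2 to 108 and 117 to 158 normalized counts. Of 18 tight junction genes, 4 rose, *Cldn3* by 0.44 ± 0.07 (adjusted p = 7.0e-06) and *Cldn4* as above among them, and 1 fell, *Cldn8*, which did not pass without EREG replicate 2 or NRG1 replicate 2 or 3 of experiment 1 or without any library of experiment 2, nor in DESeq2. Of 19 integrin, laminin and hemidesmosome genes 5 rose, among them *Itga2*, a collagen receptor (0.49). The 4 tight junction rises became 2 without EREG replicate 3 or NRG1 replicate 1 of experiment 1, or without EREG replicate 2 or NRG1 replicate 2 or 3 of experiment 2. The 5 integrin and laminin rises became 3 without EREG replicate 3 or NRG1 replicate 2 of experiment 1, or without EREG replicate 1 or 2 of experiment 2. Of 20 NF-kB targets, 2 rose (10%, against 6.57% of all genes), 1 fell (5%, against 4.77%) and 17 did not pass. The inhibitor gene *Nfkbia* rose from 262, 203 and 247 to 551, 384 and 338 in experiment 1 and from 538, 534 and 556 to 1086, 1069 and 1099 in experiment 2 (0.92 ± 0.08, adjusted p = 2.0e-13). The chemokine *Cxcl16* rose by 0.91 ± 0.15, and *Sdc4* fell. Without EREG replicate 1 of experiment 1, 4 NF-kB targets rose, and without NRG1 replicate 1 of experiment 1 or EREG replicate 1 of experiment 2, 2 fell. Of 26 interferon and MHC genes 3 rose (11.5%, against 6.57% of all genes) and 1 fell, *H2-T3* (3.85%, against 4.77%). *H2-T3* did not pass without EREG replicate 1 or NRG1 replicate 1 or 3 of experiment 1 or replicate 3 of either ligand in experiment 2. Without EREG replicate 2 of experiment 2, 2 fell. *Oasl1*, an interferon-induced gene, was at 8.17 to 12.6 and 56.5 to 80.05 with EREG and 25.3 to 37.01 and 126 to 175 with NRG1 in experiments 1 and 2 (1.34 ± 0.16, adjusted p = 2.1e-09). Of 24 intestinal transcription factors 4 rose and 3 fell, *Hnf4a*, a factor of enterocytes, rising by 0.31 ± 0.08 with no overlap, *Klf3* by 0.49 ± 0.10, and *Ehf* falling by 0.51.

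Housekeeping lists had few or no rises. Falls took in 2.5% of the nuclear subunits of oxidative phosphorylation, 30% of the mitochondrially encoded mRNAs and 11.4% of the cytosolic ribosomal protein genes, against 4.77% of all genes. The last share covers genes of all levels, whereas many genes of these lists are abundant. Of genes with a mean of 100 to under 1000, 22.5% passed in either direction, and 31.8% of those with 1000 or more. Of the 80 nuclear subunits, 2 fell, *Ndufa8* and *Uqcrh*, and none rose (median 0.01). These 2 became 1 without EREG replicate 2 or 3 or NRG1 replicate 1 of experiment 1, or without EREG replicate 1 or 2 or NRG1 replicate 2 or 3 of experiment 2, and 3 rose without NRG1 replicate 1 of experiment 2 or EREG replicate 1 of experiment 1. Of the 10 mitochondrially encoded mRNAs tested, 3 fell (median -0.34), *mt-Nd1* by 0.45 ± 0.09 (adjusted p = 8.9e-04), and the number was 1 without EREG replicate 1 of experiment 2 and 5 without EREG replicate 1 of experiment 1. Of 79 cytosolic ribosomal protein genes, 9 fell and none rose (median -0.14), and this number ran from 0 without EREG replicate 1 of experiment 2 to 27 without EREG replicate 1 of experiment 1, with 1 without EREG replicate 2, 3 without NRG1 replicate 1 or 2, and 5 without NRG1 replicate 3 of experiment 2. A model that left out the replicate number gave 2, and summed counts gave 0. Within experiment 1, 3 ribosomal protein genes rose and none fell, and within experiment 2, 29 fell and none rose (4.48% of all genes fell there). The interaction passed in 9 of the 79.

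With counts summed to 1 library per ligand and experiment, the number that passed was lower by over 1.5 times in further lists. The falls were those of 6 stem cell genes against 13, 2 Wnt targets against 6, 4 Paneth granule genes against 9 and 3 goblet cell genes against 7. The rises were those of 5 annexins against 8, 6 lipid absorption genes against 10, 9 ATF4 genes against 17, 2 serine genes against 7 and 6 actin genes against 14. The fetal list had 17 rises against 18, the NRF2 list had 14 against 20 and the *Reg* list 4 falls against 5.

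The ligand difference itself differed between the experiments in 361 genes (2.98%) by the interaction test, larger in experiment 2 on the signed log2 scale in 206 and smaller in 155. Of these genes, 104 also passed over both experiments, and 275 had opposite signs in the experiments. The 361 became 170 without the replicate number in the model. Without single libraries, the number was 167 without EREG replicate 2, 207 without EREG replicate 1, 199 without NRG1 replicate 2 and 758 without EREG replicate 3 of experiment 2, and 237 without NRG1 replicate 2 of experiment 1. Leaving out both libraries handled in a tube, an alternative chosen after seeing the data, gave 589.

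The gene with the smallest p for this difference was *Gclc*, the catalytic subunit that sets the rate of glutathione synthesis. It had 141, 167 and 138 normalized counts with EREG and 212, 157 and 146 with NRG1 in experiment 1, and 249, 252 and 306 and 977, 857 and 996 in experiment 2. The ligands overlapped in experiment 1 and lay far apart in experiment 2, with log2 fold changes of 0.19 ± 0.13 and 1.81 ± 0.11 and a difference of 1.62 ± 0.17 (adjusted p = 1.8e-11). The glutathione transferase genes *Gstm1* (0.37 ± 0.10 and 1.39 ± 0.10) and *Gm3776* (0.22 ± 0.14 and 1.60 ± 0.12), which shares 86.1% of its 3′ windows with *Gsta1* and *Gsta2*, also overlapped in experiment 1 and lay apart in experiment 2. For *Slc7a11* the ligands were apart in both, further in experiment 2 (1.33 ± 0.22 and 2.52 ± 0.18). *Malat1* was at 458, 462 and 415 and 593, 495 and 374 in experiment 1 and at 1062, 1155 and 1383 and 2916, 3065 and 3014 in experiment 2, a difference of 1.20 ± 0.16 (adjusted p = 5.2e-06). Over both experiments its rise of 0.79 ± 0.23 (adjusted p = 0.049) did not pass without EREG replicate 1 or 2 or NRG1 replicate 2 or 3 of experiment 2 (adjusted p = 0.11 to 0.125), nor without both tube libraries (adjusted p = 0.13). In a fit of the 12 libraries alone, neither *Malat1* nor *Gclc* passed over both experiments (adjusted p = 0.15 and 0.11).

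In other genes the sign or the size of the fold change differed between the experiments. *Eif5b*, a factor of translation initiation, was lower with NRG1 in experiment 1, 1064, 1099 and 1095 against 1445, 1279 and 1264, and higher in experiment 2, 1139.8, 1279 and 1283 against 652, 688 and 958 (difference 0.98 ± 0.14, adjusted p = 6.0e-07). *Elovl6*, which elongates fatty acids, went from -0.28 ± 0.10 to 0.71 ± 0.11 and the keratin *Krt18* from -0.08 ± 0.09 to 0.74 ± 0.09. *Lgals3*, the lectin galectin 3, was higher with NRG1 in both experiments, and by less in experiment 2. It was at 149.6, 132 and 113 with EREG and 436, 391 and 379 with NRG1 in experiment 1, and at 332, 329 and 266 and 387, 412 and 474 in experiment 2 (difference -1.14 ± 0.17, adjusted p = 8.6e-07). *2610528A11Rik* went from 0.83 ± 0.14 to -0.44 ± 0.11. *Ccl9*, a chemokine, had 217, 269 and 281 and 217, 253 and 282 in experiment 1, which overlapped, and 140.1, 122 and 139 and 46.9, 46.4 and 54.8 in experiment 2, where it was lower with NRG1 (difference -1.41 ± 0.21, adjusted p = 1.1e-06).

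**Figure D4:**
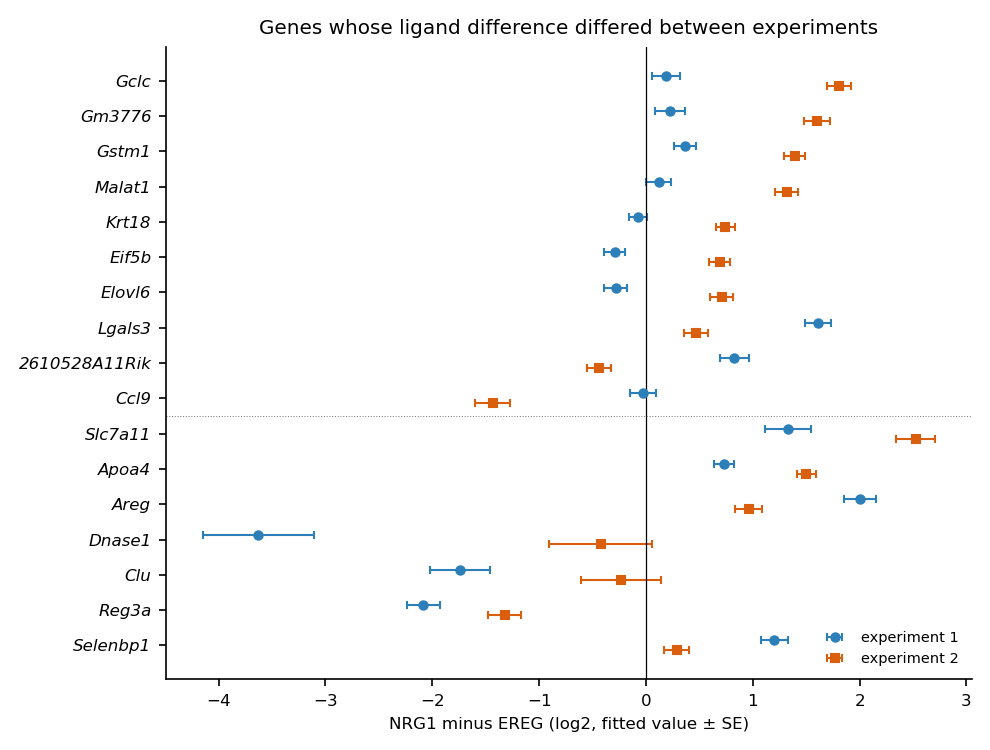
Fitted log2 fold change NRG1 minus EREG with its SE (bars) in experiment 1 (blue circles) and experiment 2 (orange squares). The 10 genes above the dotted line had the smallest p for the difference between experiments with a mean of 10 or more normalized counts, and the 7 below are genes named for other reasons whose difference passed too. *Gclc* goes from 0.19 to 1.81, and *Lgals3* from 1.61 to 0.47.

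By lists, the medians of the 2 experiments lay within 0.4 of each other on the log2 scale in 17 of the 20 lists drawn, all genes included as 1. The *Reg* genes had medians of -2.08 in experiment 1 and -1.32 in experiment 2. The ATF4 genes had 0.57 and 0.09, and the keratins 0.29 and 0.74. Medians of the NRF2 list (0.25 and 0.55) and of the actin list (0.04 and 0.37) were higher in experiment 2. These differences between list medians were not tested. For single members the interaction passed in 8 ATF4 genes, all with a lower value in experiment 2, and in 6 actin genes, 5 NRF2 targets, 2 keratins and 1 *Reg* gene, all with a higher value in experiment 2.

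**Figure D5:**
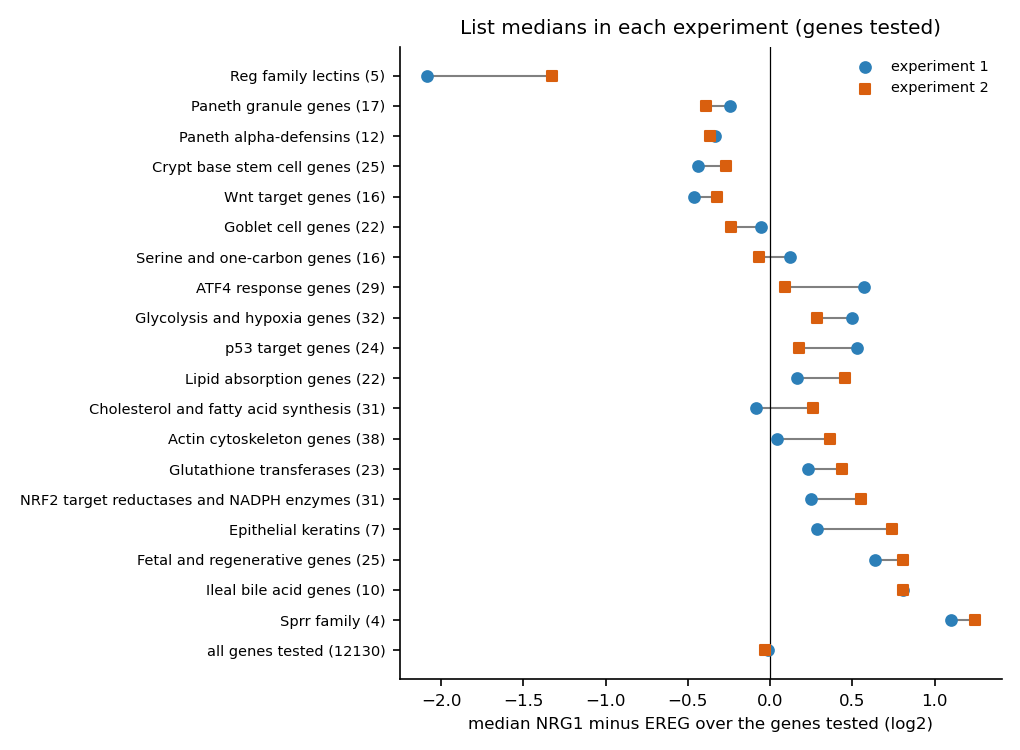
Median log2 fold change NRG1 minus EREG over the genes tested of each list (number in brackets) in experiment 1 (blue circles) and experiment 2 (orange squares). The medians of the *Reg* genes are furthest left at -2.08 and -1.32 and those of the *Sprr* genes furthest right at 1.10 and 1.24, with all genes near 0.

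The EGF libraries allow the 2 ligands to be set beside EGF. These comparisons share the NRG1 or EREG libraries with the one above, so they are given for orientation only. Against EGF, *Areg* was at 1.44 ± 0.20 with NRG1 and 0.01 ± 0.20 with EREG, *Ly6a* at 1.18 ± 0.13 and -0.28 ± 0.15, *Fabp6* at 1.64 ± 0.13 and -0.66 ± 0.15, *Slc7a11* at 2.11 ± 0.20 and 0.07 ± 0.24, and *Olfm4* at -0.54 ± 0.08 and 0.03 ± 0.08. For *Reg3b* the values were -1.99 ± 0.16 and 0.12 ± 0.13, for *Reg1* -2.02 ± 0.16 and -0.16 ± 0.14, and for *Clu* -1.03 ± 0.25 and 0.18 ± 0.21. The EREG values of these genes were nearer to 0 than the NRG1 values. Over all genes, 1391 passed for NRG1 against EGF and 1 for EREG against EGF, with 662 at an unadjusted p under 0.05 in the latter.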

How the data were processed

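The authors deposited UMI counts of each gene in each library, with a sample sheet that gives the ligand, experiment, replicate number and sequencing pool of each library. Per the methods and the submitters' processing notes, reads were aligned to GRCm38 with STAR 2.7.8a and counted with BRB-seqTools, and the annotation release and the strand setting are not given in the sources used here. The deposited counts were not normalized. All 18 columns were matched through the sample sheet, and 0 columns of other samples were present. A reporter row with 6 counts was left out. Of 31053 genes, 31011 were matched to GENCODE symbols by identifier.

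Genes with 5 or more counts whose normalized counts averaged 1 or more (12130) were tested in R 4.3.3 with edgeR 4.0.16 (TMM, robust quasi-likelihood fit, ligand, experiment and replicate number, 12 residual degrees of freedom), and per experiment and for the difference in a fit with a ligand effect in each experiment (10 degrees of freedom). p-values were adjusted by Benjamini-Hochberg over all genes tested. The normalized counts given here were scaled with the TMM factors. The mean of 1 or more needed for testing was taken with DESeq2 1.42.0 size factors. The SE was computed as the size of the log2 fold change over the square root of F. The replicate number was in the model because the study's design held it, and same-numbered NRG1 and EREG libraries deviated together in 6 of 6 pairs (r = 0.113 to 0.313, against -0.231 to 0.026 for different numbers), replicate 2 having been sequenced in a pool of its own. The values for different numbers are no separate baseline, since they depend on those for the same number. No replicate pair agreed within sampling noise (chi-square per degree of freedom 1.52 to 4.14 over 18 pairs). The code was tested on simulated data.

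Genes named with values were the 10 largest rises and falls with a mean of at least 10 and 1 direction in both experiments, the 10 with the smallest p, up to 4 per list, by adjusted p, 18 set genes, and up to 10 for the difference between experiments, 217 in all, of which some are given. Other list members are named without values as exceptions or as members shared between lists. The members and the 55 gene lists were chosen with earlier results of these data known. Lists are described by counts, with no test. Windows of 61 nucleotides in the last 500 of each named gene's transcripts were searched in other genes, and 21 of 217 shared over 10%. Alternatives were DESeq2, its size factors in edgeR, all genes with 5 counts, other blocks, the 12 libraries alone, summed counts, each library left out and, chosen after seeing the data, both tube libraries left out.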

Additional observations from a re-analysis of the deposited data

Results flagged for a closer look

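Of the genes named with values, 33 had a log2 fold change NRG1 minus EREG that differed between the experiments by the interaction test of edgeR's quasi-likelihood fit. Values are given as experiment 2 minus experiment 1, and those already described are repeated here only as differences. The difference was positive, so the value was higher in experiment 2, for *Dnase1* (3.21, adjusted p = 0.0085), *Reg3a* (0.76, adjusted p = 0.053), *Slc7a11* (1.20, adjusted p = 0.011), *Tm4sf20* (0.39, adjusted p = 0.071), *Erbb3* (0.59, adjusted p = 0.094), *Clu* (1.51, adjusted p = 0.082), *Vgll4* (0.52, adjusted p = 0.092), *Malat1* (1.20, adjusted p = 5.2e-06), *Gclc* (1.62, adjusted p = 1.8e-11), *Gm3776* (1.38, adjusted p = 2.6e-07) and *Eif5b* (0.98, adjusted p = 6.0e-07). It was also positive for *Krt18* (0.82, adjusted p = 1.4e-06), *Gstm1* (1.03, adjusted p = 1.4e-06), *Elovl6* (0.99, adjusted p = 3.9e-06), *Errfi1* (0.79, adjusted p = 0.074), *Klf6* (0.77, adjusted p = 0.0058), *Fabp1* (0.48, adjusted p = 0.013), *Apoa4* (0.77, adjusted p = 1.7e-05), *Alpi* (0.94, adjusted p = 0.0072), *Gss* (0.55, adjusted p = 0.025), *Sfn* (0.73, adjusted p = 0.026), *Actb* (0.38, adjusted p = 0.073) and *Klf3* (0.57, adjusted p = 0.041). The difference was negative for *Areg* (-1.04, adjusted p = 0.0032), *2610528A11Rik* (-1.26, adjusted p = 5.6e-07), *Lgals3* (-1.14, adjusted p = 8.6e-07), *Ccl9* (-1.41, adjusted p = 1.1e-06), *Clps* (-0.58, adjusted p = 0.032), *Tff3* (-0.43, adjusted p = 0.041), *Selenbp1* (-0.92, adjusted p = 9.5e-04), *Eif4ebp1* (-0.59, adjusted p = 0.0039), *Oat* (-0.54, adjusted p = 0.0077) and *Sat1* (-0.69, adjusted p = 0.054). For *Reg3a*, *Dnase1*, *Clu* and *Vgll4* the fold changes were below 0 in both experiments and nearer to 0 in experiment 2.

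In 280 groups of 6 libraries, 2 for each named gene, 1 library stood apart from the others by Dixon's criterion. By chance it marks about 1 group in 20 where all values share 1 level. Each group here pooled both experiments of a ligand, and levels often differed between experiments, as in *Areg* and *Olfm4*. In such a group the gap between experiments sets most of the range, so a library apart within its experiment is hardly marked. How often libraries stood apart within an experiment was not tested. The library marked was NRG1 replicate 1 of experiment 1 for *Habp2*, with 51.2 normalized counts. The other NRG1 libraries of that experiment had 26.1 and 26.1, and those of experiment 2 had 13.04 to 19.3.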

How the results depend on the processing

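Over the alternatives tried, the number of genes that differed between NRG1 and EREG ran from 1077 to 1458 against 1375, and from 1094 to 1530 with single libraries left out, except that it was 518 with counts summed per ligand and experiment, a fit with 1 library per ligand and experiment. In experiment 1 the number ran from 460 to 955 with a library left out, against 841, and in experiment 2 from 748 to 1589, against 1329. For the difference between experiments, 361 genes passed, and 167 to 758 with a library left out, 170 with no replicate block, 569 with the replicate block within experiment, 200 with the 12 NRG1 and EREG libraries alone and 589 with the tube libraries left out. The cause of these changes was not tested. Of the 140 genes named with values, 131 passed, and 116 of these passed under all 20 alternatives. None of the 131 changed direction. Of the other 15, 6 were lost without a single library, 13 with summed counts, 1 with no replicate block and 1 without the tube libraries, and 3 genes that had not passed did so under an alternative. Totals of 1311420 to 1883812 UMIs in the 12 libraries limit low genes, of which 3.22% passed at a mean under 10. Each experiment rests on 1 mouse.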
